A study of Mus musculus with 4 samples.

Results

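Basal interfollicular keratinocytes are the cells of the lowest layer of the epidermis between hair follicles. Here 10554 of them were examined in adult mouse skin, from control animals and from animals 1 day after deletion of ΔNp63. They were 7570 of 33552 cell barcodes in the control library and 2984 of 32212 in the ablated library, and 10554 of the 109216 barcodes of the 4 libraries of the study. A barcode was a member when it held at least 2000 gene UMIs (unique molecular identifiers, each marking 1 captured RNA molecule) and at most 15% mitochondrial UMIs. It also had Krt5 and Krt14, the basal keratin pair, at 20 or more summed UMIs per 10000 and at least 2 times Krt1 and Krt10, the keratin pair of the layers above. Members had no UMI of Ptprc (CD45), fewer than 3 UMIs of Cd34, Krt24, Postn and Lgr5, fewer than 4 of Moxd1, Fst, Sostdc1 and Aldh3a1, fewer than 2 of Krt79, and Krt8 below 10 per 10000. The limits on follicle genes and Krt79 were read as raw UMIs. Levels of these 15 genes therefore chose the cells and are given below only as a description.

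The control animals were DNp63fl/fl mice, in which loxP sites flank part of ΔNp63, and the ablated animals were DNp63fl/fl;K14-CreT2 mice, which also carry a tamoxifen-dependent Cre recombinase. The keratin 14 promoter drives that Cre in basal keratinocytes. Both genotypes received 200 mg/kg tamoxifen each day for 5 days by gavage, so the control cells had the drug without the Cre. Ages ran from 2 to 17 months and the labels give equal numbers of both sexes. Back skin was digested in 0.25% trypsin, either overnight at 4 °C or for 2 h at 37 °C, and which digestion, age or sex entered which library is not given in the sources used here. Cells were taken 1 day or 1 week after ablation, with a 10x Genomics 3′ kit (version 3.1) at 1 day and a 5′ kit (version 1.1) at 1 week. Each group was 1 library. With single libraries there was no replicate spread to test against, so no p-value is given, and every interval covers counting error only.

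The transcription factor p63, encoded by Trp63, is the central regulator of stratified epithelia. In skin its ΔN isoforms predominate and are made in the basal layer, where they act on genes of adhesion to the basement membrane, on keratins and on proliferation. A basal keratinocyte is anchored through hemidesmosomes, in which integrin α6β4, plectin, dystonin and collagen XVII link keratin filaments to laminin-332 and collagen VII. On leaving that layer it switches from Krt5 and Krt14 to Krt1 and Krt10. It later makes small proline-rich proteins, loricrin, filaggrin and late cornified envelope proteins, which transglutaminases and kallikrein proteases assemble and shed. Wounded or inflamed epidermis makes Krt6, Krt16 and Krt17, while Krt8 and Krt18 are keratins of simple epithelia and of Merkel cells.

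The members of the control library carried 37046745 gene UMIs and those of the ablated library 11623527, with medians of 4352 and 3397 UMIs and 3.80% and 3.84% mitochondrial UMIs per cell. Of the barcodes present in both 1-day libraries (299), 5 were members in each. Keratinocyte transcripts were also found in immune cells, from a source that was not tested. Immune cells (2 or more Ptprc UMIs and little Krt5 and Krt14) numbered only 108 and 92. Of them 19.4% and 8.70% had a Trp63 UMI at 2000 UMIs per cell. They are given here for comparison on genes they should lack, and may themselves include doublets. Antibody hashtags marked 3 fractions in each 1-day library, of 1213, 1717 and 1581 control and 336, 296 and 405 ablated members. The labels do not say what a hashtag marks, so the fractions show the spread within a library and are not replicates. Over the members, Xist had 1 UMI in each library, and the Y-linked Ddx3y stood between 78.5 and 92.9 CPM (UMIs per 1000000 gene UMIs) in all 6 fractions. No fraction thus looked female at 1 day, although the labels give both sexes, while Xist stood at 289 and 143 CPM over all barcodes of the 1-week libraries.

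The rule fixed the levels of the keratins that define the label, which are given as a description. Krt5 was at 4039.7 CPM in control and 2048 CPM in ablated members, and Krt14 at 11298 CPM in control and 7204 CPM in ablated members. Krt10 was at 556 and 828 CPM and Krt1 at 279.6 and 309.9 CPM, and Ptprc at 0 in all members by the rule. Members made up 29.2% (28.6 to 29.7, exact binomial) of the 25939 control barcodes that passed the depth and mitochondrial limits, and 11.3% (10.9 to 11.7) of the 26450 ablated ones, a difference of -17.9 percentage points (-18.6 to -17.2). The genes that define the rule differ between the libraries, so this share is no estimate of basal cell number. The step on the keratin ratio removed 18.8% of the remaining control and 45.3% of the remaining ablated barcodes. The step on Krt8 removed 1 control barcode and 2161 ablated barcodes, 42.0% of those left.

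Other genes differed between ablated cells grouped by Krt8, a gene of the rule, and these values are a description. Among members it was at 0.459 CPM in control and 221 CPM in ablated members (17 and 2572 UMIs), even though the rule caps it. In the ablated library 1829 members had no Krt8 UMI, 635 had up to 5 per 10000, and 520 lay just inside the limit, from 5 to below 10. Just outside it were 446 barcodes from 10 to below 15, and 1715 more lay at 15 or above, against 1 control barcode beyond the limit. Trp63 stood at 513 CPM in control members without Krt8. In the ablated library it was 202 CPM without Krt8, 90.6 and 83.4 CPM in the next 2 steps inside the limit, and 57.3 and 59.0 CPM in the 2 steps outside. Col17a1, the hemidesmosomal collagen XVII, was at 1226 CPM in the same control members and at 630, 306, 252, 223 and 183 CPM over the 5 ablated steps. Krt16 was at 704 CPM in control and at 1881, 2919, 2938, 2952 and 3342 CPM over the same steps. Krt6a went through 1187, 1276, 734, 681 and 366 CPM and the protease inhibitor Slpi through 135, 185, 143, 75.6 and 40.7 CPM, against 251 and 3.54 CPM in control.

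**Figure D1:**
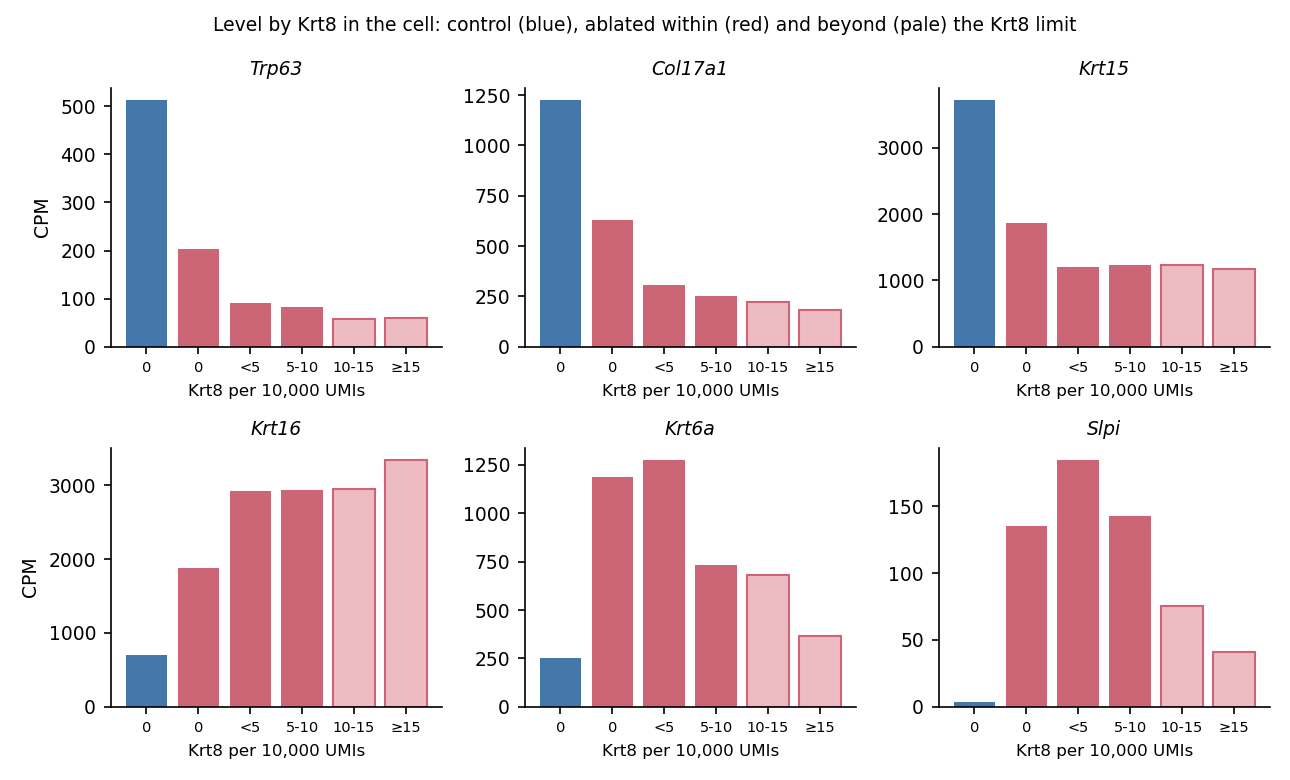
Summed level (CPM, vertical axes from 0) of 6 genes in cells grouped by Krt8 UMIs per 10000. Blue is control members without Krt8, red the ablated members and pale red the ablated barcodes beyond the Krt8 limit of 10. Trp63 is at 513 CPM in control and at 57.3 and 59.0 CPM beyond the limit, Col17a1 at 1226 CPM and at 223 and 183 CPM, and Krt6a and Slpi are highest in ablated members with a little Krt8.

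Trp63 itself (ENSMUSG00000022510, chromosome 16, 25683763 to 25892102, plus strand, here and below in GRCm38) was at 512 CPM (95% interval 505 to 519.8) in control and 152 CPM (145 to 159) in ablated members. The log2 ratio of ablated over control was -1.76 (-1.83 to -1.69), from 18985 and 1761 UMIs. The fractions held 534, 552 and 487 CPM in control and 130.4, 159.9 and 172 CPM in ablated cells, with no overlap. Per cell, at a common depth of 2000 UMIs, 57.7% of control and 21.8% of ablated members had a Trp63 UMI (79.1% and 30.8% before thinning), against 19.4% and 8.70% of immune cells of the same libraries. Control members with 0, 1, 2, and 3 or more Trp63 UMIs numbered 3204, 2327, 1166 and 873, and ablated members 2334, 425, 151 and 74. The mean was 1.03 UMIs per thinned cell in control and 0.333 in ablated members. The count is per gene, so it does not separate ΔNp63 from TAp63, and reads from the 3′ end need not cover the floxed exon. With Krt8-free members alone the ratio was -1.34, and with the Krt8 limit dropped -2.20.

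In the ablated members 22 of 23 measured terminal differentiation genes, 4 of 4 wound-induced keratins and 12 of 28 inflammatory mediators were at least 2-fold higher, and 4 of 14 adhesion genes of the basal layer at least 2-fold lower. Of 6869 genes with a mean of at least 10 CPM, outside the 15 genes of the rule and the mitochondrial genes, 331 (4.82%) were at least 2-fold higher in the ablated library and 84 (1.22%) at least 2-fold lower. At 1.5-fold the numbers were 684 (9.96%) and 312 (4.54%). The shares at 2-fold, 4.82% and 1.22%, are the ones to set beside each list count below. The median log2 ratio was 0.036. The counting interval lay above 0 for 2323 genes and below 0 for 1799, most of them for differences well under 2-fold. In the hashtag fractions, all 3 ablated values lay above all 3 control values for 18.1% of the 6869 genes and below them for 13.1%, and this held for 302 of the 331 higher genes and, in the other direction, 79 of the 84 lower ones. Both of these sets were chosen from the same cells. A gene under 10 CPM in control passed the limit only where it was higher in the ablated library, so counts and medians of lists are descriptions. All of the 12 higher mediators but Tslp and Il1rn were under 10 CPM in control.

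Levels in immune cells of the same library were set beside those of members. Of the 331 higher genes, 69 stood above the upper counting bound of the immune cells in the ablated library. For the rest the basal level was at or below that bound, which is wide for genes of low count because the immune cells are few. The immune cells also held more suprabasal RNA than the members: Krt10 stood at 7171 CPM (6934 to 7415) in them and at 828 CPM in members of the ablated library. Their level is therefore a comparison and no measured background for late genes. Of the genes said below to stand above it, the lowest ablated hashtag fraction of Rptn, Lce1a1, Lce1b, S100a9, Lcn2, Klk6, Krt6a, Krt6b, Pmaip1 and Id1 lay under it. Of the 84 lower genes, 56 stood above that bound in the control library, where they were high. The share of all measured genes above the bound was not computed for either library. These counts, and those of the lists below, are therefore descriptions. The share of the higher genes that comes from free RNA was not tested, and immune levels are given beside the genes the results turn on.

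**Figure D2:**
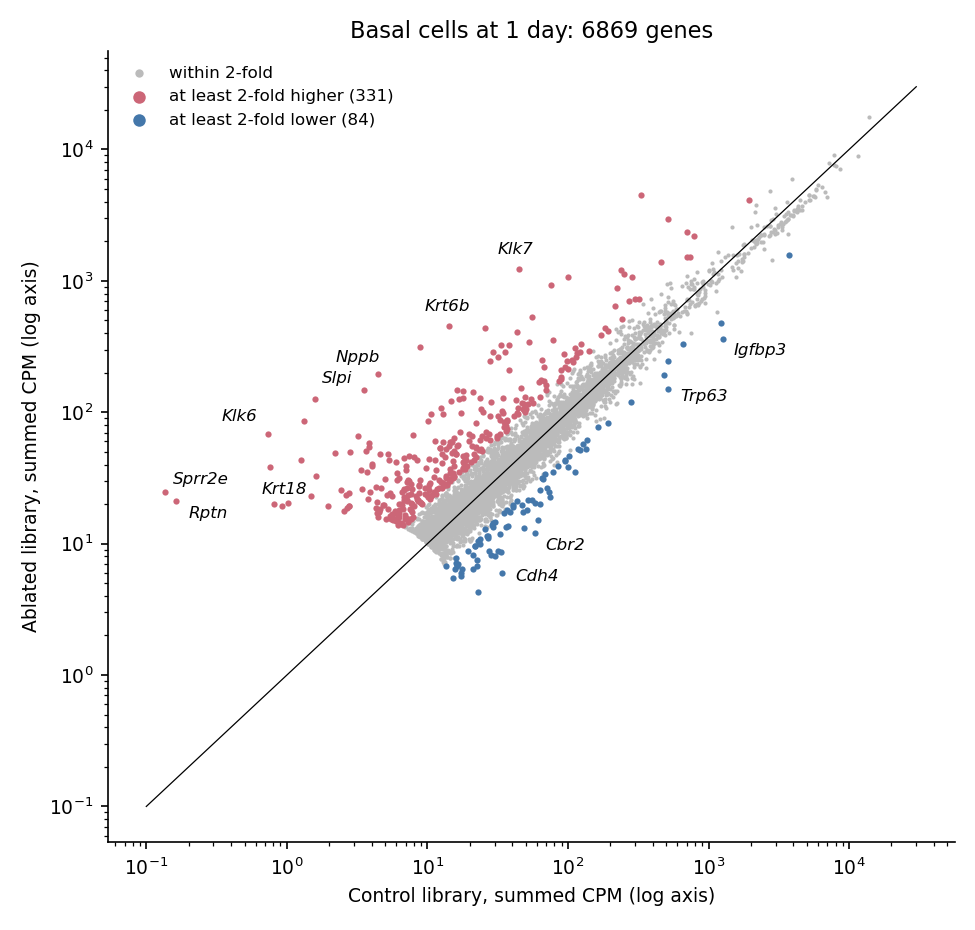
Summed level of 6869 genes in basal cells, control (horizontal) against ablated (vertical), in CPM on log axes, 1 point per gene. Red points are the 331 genes at least 2-fold higher and blue points the 84 at least 2-fold lower; most of the named red genes stand below 10 CPM in the control library.

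Genes of adhesion to the basement membrane had the lowest median of the 22 lists examined. Of 14 measured genes of hemidesmosomes and the basement membrane, 4 were at least 2-fold lower and none higher, with a median log2 ratio of -0.50 against 0.036 over all genes. Col7a1, the anchoring fibril collagen, was at 33.4 CPM in control and 8.69 CPM in ablated members, a log2 ratio of -1.94 (-2.25 to -1.65). Col17a1 (ENSMUSG00000025064, chromosome 19, 47646344 to 47692094, minus strand) went from 1226 CPM (95% interval 1215 to 1237) to 476 CPM (464 to 489), with 1039, 1304 and 1326 CPM in the control fractions and 398, 431 and 618 CPM in the ablated ones. A Col17a1 UMI was found in 85.8% of control and 49.1% of ablated members at equal depth, and in 34.3% and 11.96% of immune cells. Lamb3, the β3 chain of laminin-332, was at 164 and 77.3 CPM, and Dst, whose epithelial form is the plakin BP230, at 518 and 245 CPM, both with log2 ratios of -1.08. The fractions of both libraries lay apart for these genes. In members with Krt8 of 0 the ratios of Col17a1 and Lamb3 were -0.96 and -0.904.

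Subunits of the same structures did not move alike. Among the integrins Itga3 had a log2 ratio of -0.79, Itgb4 -0.72, Itgb1 -0.44 and Itga6 -0.18. Of the laminin genes, Lama3 had -0.06 and Lamb3 -1.08. Plec, the plectin gene, had -0.35. The highest of the list were Fermt1, the kindlin-1 gene that activates integrins, at 40.5 and 55.3 CPM and 0.45 (0.31 to 0.58), Lama5 at 0.16 (-0.08 to 0.40) and Cd151 at 0.13 (-0.01 to 0.28). The last 2 intervals include 0. In control skin 14 of the 14 genes were higher in basal than in suprabasal cells, with a median log2 ratio of 2.25. Over the lists that median ran from -3.36 for terminal differentiation to 3.86 for G2/M genes, and the share over all genes was not computed.

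Genes that mark basal identity or are known targets of p63 went different ways. Of 22 measured, 5 were at least 2-fold lower, Trp63 among them, against 1.22% of all genes. The 1 that was higher is near the share of all genes (4.82%), and the median was -0.18. Igfbp3, a secreted binding protein of insulin-like growth factors, was at 1272 CPM in control and 362 CPM in ablated members (log2 ratio -1.81, -1.86 to -1.77), and 779.6, 1495 and 1558 CPM in the control fractions lay above 308, 261 and 538 CPM in the ablated ones. Sox6, a transcription factor of the Sox family, was at 70.7 and 26.3 CPM (log2 ratio -1.42, -1.6001 to -1.25). Cdh3, P-cadherin of the basal layer, had -1.30 (63.2 and 25.7 CPM), and Krt15, a basal keratin, had -1.24 (3721 and 1577 CPM). Others were closer to control: Perp, a desmosomal p63 target, had 0.02 and Tfap2a 0.08. The receptors Egfr and Fgfr2 had -0.17 and -0.19. Sfn, the 14-3-3σ gene, was at 6708 CPM in control and 4781 CPM in ablated members (-0.49). The member at least 2-fold higher was Pthlh, parathyroid hormone-like hormone, at 6.02 and 14.9 CPM (log2 ratio 1.31, 1.01 to 1.599), with an immune level of 8.33 CPM (2.27 to 21.3), and 0.69 without the Krt8 limit. Tfap2c had 0.30 (0.17 to 0.43) and Bmp7 0.34 (0.07 to 0.61), and Bmp7 was -0.30 when the Krt8 limit was dropped.

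The 12 lowest genes, ranked by the bound of the interval nearest 0, held further genes outside these lists. Cdh4, R-cadherin, stood at 34.2 CPM in control and 6.02 CPM in ablated members (log2 ratio -2.50, -2.87 to -2.16). Cbr2, a carbonyl reductase, was at 58.0 and 11.96 CPM (log2 ratio -2.28, -2.54 to -2.03), and Gpnmb, a transmembrane glycoprotein, at 23.0 and 4.30 CPM (log2 ratio -2.42, -2.86 to -2.00). Ch25h, cholesterol 25-hydroxylase, was at 60.8 and 15.1 CPM (log2 ratio -2.00, -2.23 to -1.78). Fractions held 39.3 to 80.3 CPM of it in control and 5.02 to 18.9 CPM in ablated cells. Slc4a8, a sodium-bicarbonate transporter, had -1.90, and Col16a1, a collagen of the FACIT type, -1.85. Smoc2, a matricellular protein, had -1.73 (75.01 and 22.6 CPM). Adam8, a surface metalloprotease, had -1.67 (111 and 34.9 CPM). Thy1, also a T cell marker, was at 48.8 and 13.2 CPM (-1.89), against 150.1 CPM (119 to 187) in control immune cells. Gpnmb, Thy1 and Col16a1 did not stand above the upper immune bound in the control library, and the other lowest genes did.

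Differentiation transcripts were measured in 2 lists. Of 23 measured genes of terminal differentiation, 22 were at least 2-fold higher in ablated members and none lower, with a median log2 ratio of 3.02. Of these, 9 were under 10 CPM in control and entered only through the ablated library, and Tgm3, Lce3c and Kprp were not above the limit. The median was 2.74 with no filter (26 genes) and 1.81 in members without Krt1 and Krt10 UMIs (16 genes). Of 15 early differentiation genes 8 were higher and 1 lower, with a median of 1.08, and 0.67 in the latter members. In the control skin none of the 23 and 2 of the 15 were higher in basal than in suprabasal cells, with median log2 ratios of -3.36 and -2.35. The share over all genes was not computed. Only 4 of the 22 (Rptn, Sprr2a3, Lce1a1 and Lce1b) and 1 of the 8 (Klk10) stood above the immune bound in the ablated library. Lce1a1 was at 18.6 CPM in control and 44.0 CPM in ablated members, but its hashtag fractions overlapped at 2.83 to 4.84 and 3.58 to 5.77 CPM, under the immune bound. The fractions of Lce1b held 2.66 to 7.74 and 4.49 to 8.604 CPM, also under it.

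Among the cornified envelope precursors, Sprr2e had the highest ratio, at 0.135 CPM in control and 24.7 CPM in ablated members (log2 ratio 7.52, 6.28 to 9.15), from 5 and 287 UMIs, while immune cells of the ablated library held 58.3 CPM (38.8 to 84.3). Sprr2d was at 1.32 and 85.8 CPM (log2 ratio 6.02, 5.61 to 6.46) and Sprr2f at 1.27 and 42.9 CPM (log2 ratio 5.08, 4.65 to 5.54), both below their immune levels of 250.02 CPM (207 to 299) and 200.0 CPM (162 to 244). The ablated hashtag fractions varied widely, from 1.28 to 50.2 CPM for Sprr2e, 10.3 to 203 CPM for Sprr2d and 5.77 to 100 CPM for Sprr2f. The highest control fractions held 0.313, 3.45 and 2.66 CPM of the same genes. Sprr2a3 went from 8.80 CPM (95% interval 7.87 to 9.81) to 314 CPM (304 to 325), a log2 ratio of 5.16, above its immune level of 52.1 CPM (33.7 to 76.9). At equal depth 0.951% of control and 14.2% of ablated members had a UMI of it, and 4.35% of ablated immune cells. Rptn, repetin, another envelope precursor, was at 0.162 and 21.2 CPM (log2 ratio 7.03, 5.89 to 8.49) and at 0 CPM (0 to 7.69) in the ablated immune cells. Its ablated fractions held 0.701, 10.8 and 1.92 CPM, of which 2 lay under that bound, and cells with no clear hashtag 40.5 CPM. Sprr2 genes are close copies of each other, so the split of reads among them is uncertain.

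The Sprr2 genes form a cluster on chromosome 3, and Rptn lies farther along the same chromosome. The letters TGANTCA, the core bound by the AP-1 family, lie in the promoters of 4 of the 12 highest genes, of which 10 are in the RefSeq promoter table (GRCm38.p6, 250 bases before to 50 after each gene start). The 4 windows are shown because these 4 genes were all among the highest, 5′ to 3′ on the plus strand with the match in capitals and 25 bases either side. They are chr3:92351925-92351981 for Sprr2e, chr3:92338922-92338978 for Sprr2d, chr3:92364965-92365021 for Sprr2f and chr3:93393578-93393634 for Rptn.
Sprr2e: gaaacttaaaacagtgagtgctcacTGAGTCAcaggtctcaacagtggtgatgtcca
Sprr2d: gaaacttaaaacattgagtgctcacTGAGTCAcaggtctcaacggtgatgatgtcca
Sprr2f: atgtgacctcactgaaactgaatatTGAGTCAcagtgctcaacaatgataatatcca
Rptn: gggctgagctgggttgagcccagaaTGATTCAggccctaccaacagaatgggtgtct
The match begins 193 bases before the gene start in both Sprr2e and Sprr2d, 197 in Sprr2f and 96 in Rptn. Searched on both strands (the letters read the same on either), TGANTCA was found for 20.5% of the 249 higher genes with a promoter in the table, 10.0% of the 70 lower ones, 6.85% of 5535 genes measured at 10 CPM and 8.97% of all 27025 genes of the table. A half-site of the p53 family, to which p63 belongs, was found for 13.7%, 5.71%, 8.20% and 9.55% of the same sets. Of the 12 lowest genes, 8 are in the table and 1 has TGANTCA in its promoter. Close copies such as the Sprr2 genes were counted as separate genes. A match is a description of the letters and not of binding.

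Other members of the late programme had high levels in both basal and immune cells of the ablated library. Klk7, a kallikrein protease of desquamation (ENSMUSG00000030713, chromosome 7, 43811294 to 43816359, plus strand), was at 44.6 CPM in control and 1236 CPM in ablated members (log2 ratio 4.79, 4.72 to 4.87), against 2521 CPM (2381 to 2667) in ablated immune cells. A Klk7 UMI was found in 57.0% of ablated members and 56.5% of immune cells (55.2 to 58.8 and 45.8 to 66.8), a difference within the counting intervals. Sprr1a was at 331 and 4509 CPM, Spink5, an inhibitor of those kallikreins, at 43.1 and 408 CPM, Lor, loricrin, at 113 and 306 CPM and Flg, filaggrin, at 7.91 and 67.6 CPM. The lowest of the list were Ivl, involucrin, with 0.24 (0.02 to 0.46), Lce1b with 1.13 (0.98 to 1.28) and Cdsn, corneodesmosin, with 1.22 (1.02 to 1.41). Ivl was -0.22 without the Krt8 limit and -0.06 without cycling cells. Lce1b ranged from 0.07 without cycling cells to 3.62 without Scrublet doublets, and its fractions overlapped, at 2.66 to 7.74 CPM in control and 4.49 to 8.604 CPM in ablated members. Cdsn was 0.35 in members without Krt1 and Krt10 UMIs, a setting added after the data were seen, and Krt77 0.87. Early genes included Sbsn at 518 CPM in control and 2962 CPM in ablated members (log2 ratio 2.52, 2.49 to 2.54) and Krt77 at 238 and 1199 CPM (log2 ratio 2.33, 2.29 to 2.37), with 6678 CPM (6448 to 6913) and 5134 CPM (4933 to 5341) in ablated immune cells. Endou was at 3.83 and 54.5 CPM (log2 ratio 3.83, 3.57 to 4.10), and immune cells held 152 CPM (119 to 191). Serpinb2 (log2 ratio -0.12, -0.13 to -0.11) and Lypd3 (log2 ratio 0.19, 0.17 to 0.22) differed little, and Mt4 was lower, at 40.8 and 19.1 CPM (log2 ratio -1.095, -1.31 to -0.89). Without the Krt8 limit Serpinb2 turned to 0.13 and Mt4 was at -0.006.

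**Figure D3:**
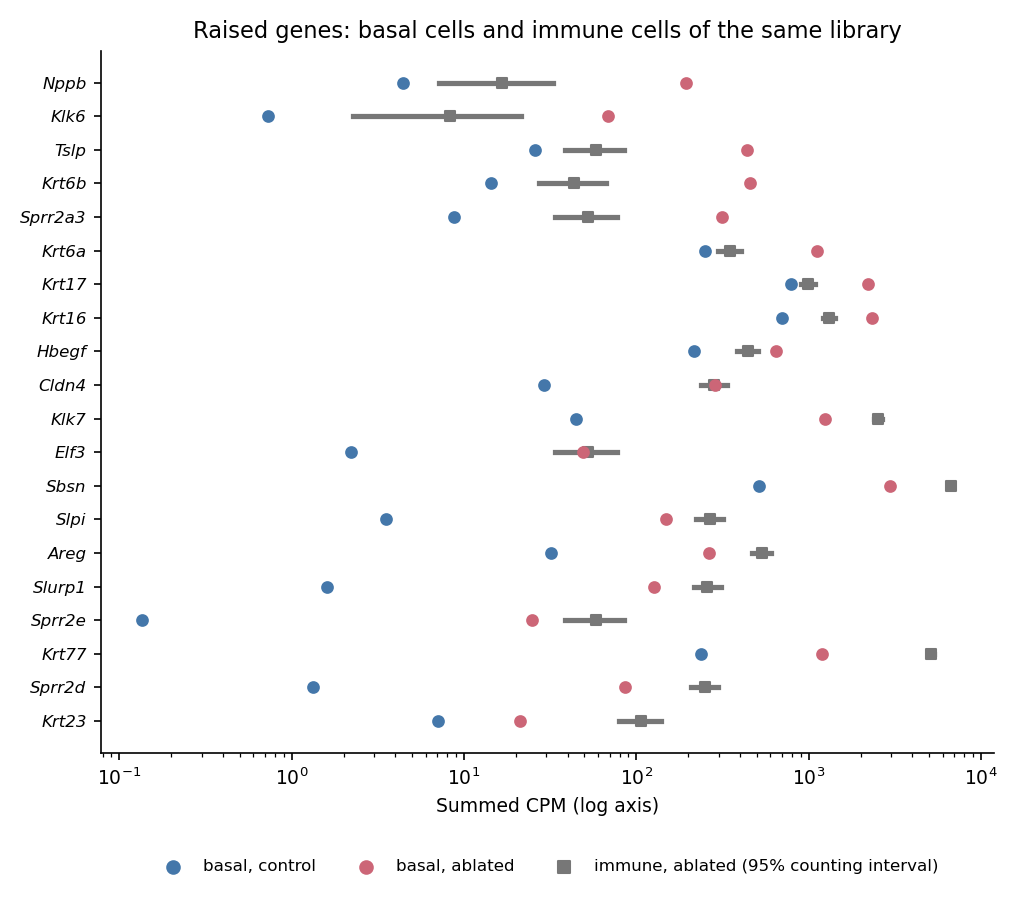
Summed level in CPM (log axis) of 20 genes higher in ablated members: basal cells of the control (blue) and ablated library (red), and immune cells of the ablated library (grey square with its 95% counting interval). The genes at the top, from Nppb to Hbegf, stand above the immune level in ablated basal cells, and those below Cldn4 lie at or under it.

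Further genes among the 12 highest were secreted. Nppb, the natriuretic peptide B gene (ENSMUSG00000029019, chromosome 4, 147985788 to 147987205, plus strand), was at 4.43 CPM in control and 195 CPM in ablated members (log2 ratio 5.46, 5.23 to 5.70), and its immune level of 16.7 CPM (7.20 to 32.8) was far lower. The fractions held 6.11, 4.23 and 6.68 CPM in control and 161, 515 and 105 CPM in ablated cells. Klk6, a kallikrein, was at 0.729 and 68.4 CPM (log2 ratio 6.55, 6.0002 to 7.16), above the 8.33 CPM (2.27 to 21.3) of ablated immune cells. Slurp1, a secreted Ly6 protein, was at 1.59 and 127 CPM (log2 ratio 6.32, 5.94 to 6.72) and Slpi at 3.54 and 149 CPM (log2 ratio 5.40, 5.14 to 5.66), both below their immune levels of 258 CPM (215 to 308) and 267 CPM (222 to 317). Slpi was found in 7.91% of ablated members and 9.78% of immune cells.

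Of 17 measured transcription factors of differentiation, 6 were at least 2-fold higher and none lower, with a median of 0.25 (0.12 without Krt1 and Krt10 UMIs). Over all genes 4.82% were higher. Elf3, an epithelial ETS factor, was at 2.21 and 49.0 CPM (log2 ratio 4.47, 4.13 to 4.82), Grhl3, of the grainyhead family, at 10.3 and 43.7 CPM (log2 ratio 2.08, 1.89 to 2.28) and Prdm1, the BLIMP1 gene, at 28.3 and 119 CPM (log2 ratio 2.07, 1.95 to 2.18). Their ablated immune levels were 52.1 CPM (33.7 to 76.9), 77.1 CPM (54.3 to 106) and 227 CPM (186 to 274), and none of the 6 stood above that bound. Ehf, Cebpb and Zfp750 completed them with 1.57, 1.26 and 1.15. Of the 6, Elf3 was under 10 CPM in control and entered only through the ablated library. Gata3 was at 408 and 256 CPM (log2 ratio -0.67, -0.73 to -0.62), with wide and overlapping fractions of 215 to 627 and 169.6 to 349 CPM. Ets1 had -0.18 (-0.26 to -0.11) and Klf5 -0.05 (-0.08 to -0.02), and Ets1 was 0.07 and Klf5 0.09 with the Krt8 limit dropped.

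The 4 wound-induced keratins were all at least 2-fold higher (median 1.95) and above the immune bound of the ablated library. Krt16 was at 704 CPM in control and 2343 CPM in ablated members (log2 ratio 1.74, 1.71 to 1.76), Krt17 at 786 and 2207 CPM (log2 ratio 1.49, 1.47 to 1.51) and Krt6a at 251 and 1120.5 CPM (log2 ratio 2.16, 2.12 to 2.20). At equal depth 20.95% of control and 39.8% of ablated members had Krt6a, against 22.8% of ablated immune cells. Krt6b was at 14.3 and 456 CPM (log2 ratio 4.99, 4.87 to 5.13), with ablated fractions of 658, 1053 and 14.1 CPM, the lowest of which lay below the highest control fraction (37.6, 0.968 and 1.16 CPM). Krt6a and Krt6b are close copies, and single values are uncertain. Of the keratins of simple epithelia, Krt18, the partner of Krt8, was at 0.756 and 38.5 CPM (log2 ratio 5.67, 5.12 to 6.28), above its immune level of 14.6 CPM (5.86 to 30.05). Krt23 was at 7.10 and 20.99 CPM (log2 ratio 1.56, 1.31 to 1.82), under 106 CPM (79.1 to 139.7), and at a log2 ratio of 0.47 without Krt1 and Krt10 UMIs, where Krt17 was at 0.82.

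Of 28 measured inflammatory mediators, 12 were at least 2-fold higher and none lower, with a median of 0.79 that ranged from 0.30 with a filter of 50 CPM to 1.08 at a minimum of 4000 UMIs. Only Tslp and Il1rn (69.9 CPM in control and 148 CPM in ablated members) among the 12 were at 10 CPM or more in control. The others entered only through the ablated library. Of the 12, those above the immune bound were Tslp, Il24, S100a8, S100a9 and Lcn2. Control and ablated fractions overlapped for S100a9 (0.242 to 11.9 and 3.21 to 40.6 CPM) and Lcn2 (3.02 to 13.5 and 5.77 to 20.8 CPM). Tslp, a cytokine that epithelia make in allergic inflammation, was at 25.7 CPM in control and 439 CPM in ablated members (log2 ratio 4.10, 4.00 to 4.20), against 58.3 CPM (38.8 to 84.3) in immune cells. Its share was 4.20% of control and 17.3% of ablated members and 4.35% of ablated immune cells. The fractions held 13.0, 41.4 and 26.5 CPM in control and 611, 711 and 147 CPM in ablated cells. S100a8, a calcium-binding alarmin, was at 1.62 and 32.9 CPM (log2 ratio 4.34, 3.95 to 4.76) with S100a9 at 2.43 and 25.6 CPM, and Il24 at 3.73 and 35.3 CPM. The interleukin genes Il18 (3.89 and 24.7 CPM) and Il1a (2.75 and 19.4 CPM) were also more than 2-fold higher. The lowest were the chemokine Cxcl14 at 1139 and 577 CPM (log2 ratio -0.98, -1.02 to -0.94), the adhesion receptor Icam1 at 169.8 and 89.3 CPM (log2 ratio -0.93, -1.02 to -0.83) and the alarmin Il33 at 191 and 137 CPM (log2 ratio -0.48, -0.56 to -0.40). Over the other settings Cxcl14 ran from -1.43 to -0.61, Icam1 from -1.22 to -0.66 and Il33 from -1.13 without Krt1 and Krt10 UMIs to -0.09 without the Krt8 limit. Fractions of Cxcl14 held 966, 1266 and 1128 CPM in control and 458, 476 and 487 CPM in ablated cells, without overlap, while those of Icam1 (98.5 to 266 and 65.2 to 126 CPM) and Il33 (163 to 264 and 85.9 to 218 CPM) overlapped.

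Immediate early and stress genes also respond to tissue handling, and the digestion of each library is not given. Of 9 AP-1 genes, 2 were at least 2-fold higher: Fos at 243 and 515 CPM (log2 ratio 1.08, 1.04 to 1.13) and Fosl2 at 86.8 and 174 CPM (log2 ratio 1.00, 0.92 to 1.08). Fosb had 0.71 and Jund 0.38, while Fosl1 had 0.01 and Jun -0.10, both of either sign over the settings. The list's median was 0.53 and none of the higher members stood above the immune bound. Of 22 stress and dissociation genes 2 were higher, against 4.82% of all genes, Btg2 (log2 ratio 1.37, 1.33 to 1.41) and Egr1 (log2 ratio 1.17, 1.12 to 1.23), with Klf2 just under 2-fold and a median of 0.60. All 4 of these calls were lost in 1 or more settings: without Krt1 and Krt10 UMIs Fos was 0.97, Fosl2 0.89, Btg2 0.86 and Egr1 0.85. Hspa5, Hsp90aa1 and Gadd45b were the lowest, with -0.13, -0.11 and -0.25.

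Of the ligands of the EGF receptor, which drive keratinocyte migration and wound closure, 3 were at least 2-fold higher. Areg was at 31.8 and 264 CPM (log2 ratio 3.06, 2.96 to 3.15), Ereg at 5.34 and 43.0 CPM (log2 ratio 3.01, 2.77 to 3.25) and Hbegf at 217 and 649 CPM (log2 ratio 1.58, 1.54 to 1.63), the 3 of 11 measured members past 2-fold. Over all genes 4.82% were higher, and Ereg, under 10 CPM in control, entered only through the ablated library. The ligands Epgn at 272 and 442 CPM (0.70) and Tgfa at 77.8 and 94.3 CPM (0.28) did not pass. Hbegf stood above its immune level of 444 CPM (386 to 508), and Areg and Ereg did not, with immune levels of 533 CPM (470.0 to 603) and 165 CPM (130.3 to 205). Erbb2 and Erbb3 had 0.51 and 0.33, Nrg1 was the lowest at -0.56 (-0.69 to -0.42), and the feedback inhibitors Lrig1 and Lrig3 had 0.23 and 0.25. Lrig1 was negative in 4 of the alternative settings and Lrig3 without the Krt8 limit. Among 11 genes of matrix proteolysis, 4 were higher and 2 lower: Plau, urokinase, at 7.40 and 30.1 CPM (log2 ratio 2.03, 1.79 to 2.26), Timp2 (1.26), Plaur, its receptor (1.101), and Mmp10 (1.01) against Adam8 and Mmp3, stromelysin 1, at 134 and 52.4 CPM (log2 ratio -1.36, -1.48 to -1.23). Over all genes 4.82% were higher and 1.22% lower, and Plau, under 10 CPM in control, entered only through the ablated library. Mmp14 had -0.81, and -1.03 with follicle limits per 10000 UMIs. Timp2 was 0.64 without Krt1 and Krt10 UMIs and Plaur 0.68 at Krt8 of 0. Mmp10 lay at the threshold, and its fractions overlapped (15.2 to 29.9 and 26.5 to 53.3 CPM).

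Signalling, junction and other lists are given together. Of 7 Notch genes 3 were at least 2-fold higher: Notch2 (log2 ratio 1.25, 1.06 to 1.44), Notch3 (1.22) and the target Hes1 (1.13), while Notch1 had -0.23, the ligand Dll1 -0.41 and the coactivator Maml1 0.28. These 3 did not stand above the immune bound of the ablated library, and over all genes 4.82% were higher. Notch3, at 7.67 CPM in control and 17.9 CPM in ablated members, entered only through the ablated library. Notch2 was 0.22 in members without Krt1 and Krt10 UMIs. Hes1 was 0.71 in members with 1 hashtag, and its fractions overlapped (7.07 to 9.19 CPM in control and 8.98 to 20.3 CPM in ablated members). None of 9 Wnt genes passed 2-fold (median 0.067). The receptor Fzd6 had -0.71, Wls, which carries Wnt ligands to the surface, -0.55, and Axin1 -0.27, and the secreted inhibitor Sfrp1 had 0.41, the coreceptor Lrp5 0.22 and Tcf7l2 0.14, the last 2 of either sign over the settings. None of 10 genes of FGF and IGF signalling passed it either (median 0.049), with Fgfr1 at 0.87 and Spry2 at 0.72 the highest, Spred1 at 0.14, and Irs2 at -0.77, Igfbp7 at -0.61 and Dusp6 at -0.26 the lowest. In other settings 3 of them passed: Fgfr1 was 1.24 at Krt8 of 0 but 0.34 without the Krt8 limit, and Irs2 -0.34 and -1.23 in the same 2 settings. Igfbp7 was -1.25 without Krt1 and Krt10 UMIs but -0.05 at 2000 to 5000 UMIs. Of 17 junction genes 1 passed, which is near the share of all genes (4.82%): Cldn4, a claudin of tight junctions, at 29.2 and 287 CPM (log2 ratio 3.30, 3.20 to 3.40) and an immune level of 283 CPM (238 to 335). Ocln had 0.84 and F11r 0.33, and the desmosomal genes Pkp1, Dsc3 and Dsg2 had -0.02, -0.10 and -0.32. Of 19 other genes typical of the basal state, Gjb2 (1.89), Id1 (34.5 and 98.0 CPM) and Id3 (139.9 and 291 CPM) were higher, the latter 2 above the immune bound, and the metallothionein gene Mt2 (-0.55) and the cyclins Ccnd2 (-0.53) and Ccnd1 (-0.43) the lowest. Without Krt1 and Krt10 UMIs Id3 was 0.83 and Id1 just under 2-fold.

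Cholesterol synthesis genes were in part higher in ablated members. In control skin 1 of 17 was higher in basal than in suprabasal cells (median -1.65, with no share over all genes computed). Of the 17, 8 were at least 2-fold higher and none lower, with a median of 0.94 (0.54 without Krt1 and Krt10 UMIs), and none of the 8 stood above the immune bound. Hsd17b7 was at 24.5 and 66.2 CPM (1.43) and Idi1 at 47.3 and 118 CPM (1.31). Without Krt1 and Krt10 UMIs Hsd17b7 was 0.73 and Idi1 0.79. Mvk (0.53, but 1.14 in the same setting) and Ebp (0.52) were among the lowest ratios. None of 10 genes of interferon response and antigen presentation passed 2-fold (median -0.18), with the immunoproteasome genes Psmb9 (log2 ratio -0.70, -0.84 to -0.56) and Psmb8 (log2 ratio -0.59, -0.67 to -0.50) and H2-D1 (log2 ratio -0.32, -0.36 to -0.29) the lowest and Ifi27l2a (0.37) and Bst2 (0.08) the highest. In the p53 list 1 of 16 passed, also near the 4.82% of all genes, the apoptosis gene Pmaip1 at 19.9 and 68.7 CPM (log2 ratio 1.79, 1.64 to 1.94), above its immune level of 41.7 CPM (25.5 to 64.4). Cdkn1a, the p21 gene, was at 505 and 954 CPM (log2 ratio 0.92, 0.89 to 0.95) and at a log2 ratio of 1.098 without the Krt8 limit, Plk2 had 0.75, and Trp53inp1, Phlda3 and Trp53 had -0.16, -0.54 and -0.55.

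**Figure D4:**
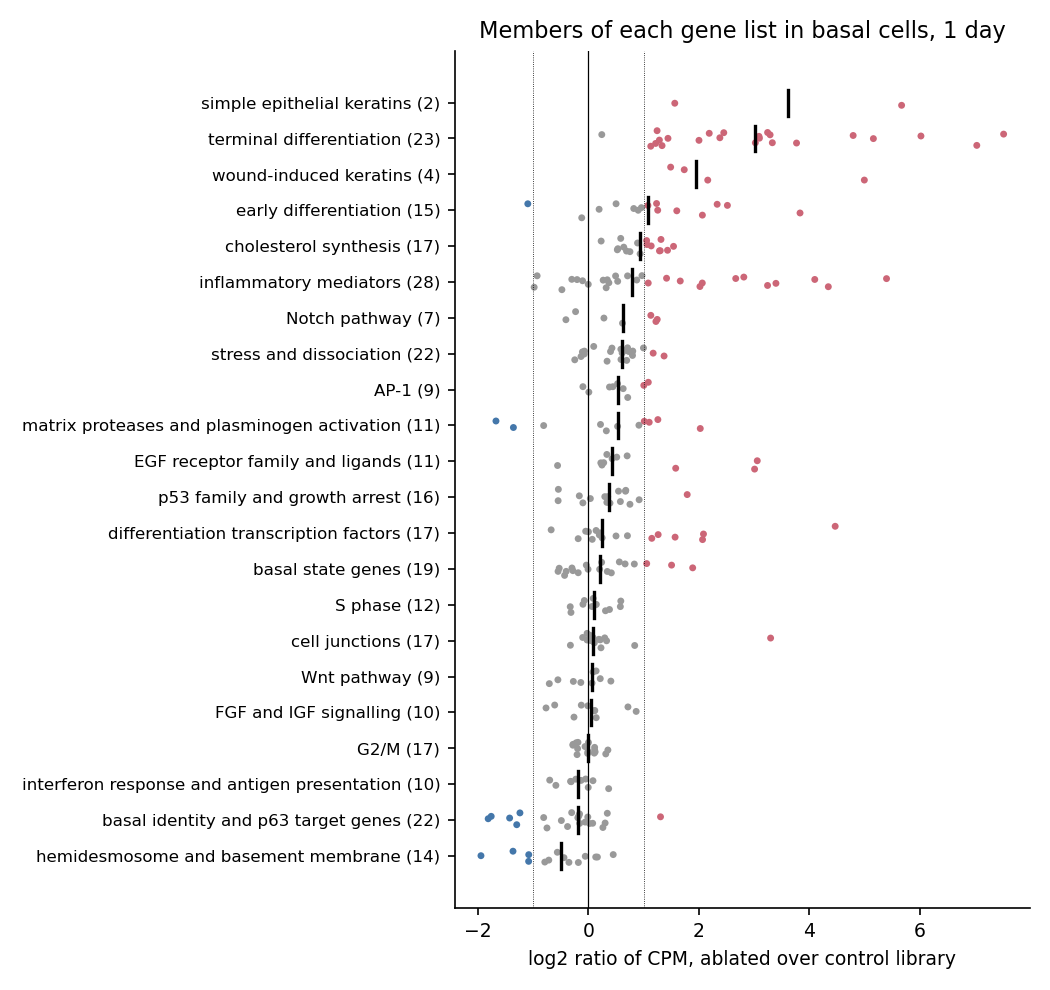
log2 ratio of CPM, ablated over control (horizontal axis), for each measured member of 22 gene lists in basal cells, with the number measured in brackets and the median as a black bar. Red and blue points are at least 2-fold higher and lower. Terminal differentiation (median 3.02) and the wound keratins (1.95) lie to the right, hemidesmosome genes (-0.50) to the left.

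None of 17 G2/M and 12 S phase genes passed 2-fold over all members, with medians of -0.012 and 0.10, and this depended on the cells taken. In members of 2000 to 5000 UMIs, a setting added after the data were seen, the G2/M median was 0.89, with Cenpa at 1.00 and, under 10 CPM on average, Ccnb1 at 1.44 and Ccna2 at 1.09, and with Krt8 of 0 it was -0.29. Without Krt1 and Krt10 UMIs Hells was at 1.35. The ratios of Cdc20, Ccna2, Cenpa, Tyms and Mcm6 changed sign in 1 or more settings. Ccnb1, Ccna2 and Cenpa were the highest G2/M genes (0.35, 0.32 and 0.12) and Cdc20, Cks2 and Tubb4b the lowest (-0.28, -0.28 and -0.23). In S phase Slbp (0.59), Hells (0.58) and Rrm2 (0.38) were the highest and Cdt1 (-0.33), Tyms (-0.31) and Mcm6 (-0.10) the lowest. At 2000 UMIs per cell, 46.9% of control and 41.2% of ablated members held 3 or more UMIs of the G2/M list (-5.76 points, -7.87 to -3.65; 71.2% and 60.9% before thinning), but so did 32.4% and 33.7% of immune cells. Tubb4b, a tubulin gene not limited to dividing cells, was found in 75.2% of control members. Without Tubb4b and Cks2, a step added after the data were seen, the shares were 9.29% (8.64 to 9.96) and 9.22% (8.20 to 10.3), a difference of -0.071 points (-1.29 to 1.1998), with 11.1% and 13.0% of immune cells. The S phase share was 5.94% and 8.45% (2.501 points, 1.38 to 3.68), but 21.4% and 19.0% before thinning, where the direction turned, against 11.1% and 8.70% of thinned immune cells, and neither the narrower G2/M share nor the S phase share stood above that of immune cells.

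Members of one library also differed with their own Trp63 UMIs. In the ablated library, at equal depth, 2334 members had no Trp63 UMI and 225 had 2 or more, with median depths of 3435 and 3327 UMIs. Between these sets Col17a1 was at 405 and 962 CPM, Igfbp3 at 291 and 843 CPM, Dst at 207 and 467 CPM, and Krt15 at 1373 and 2792 CPM. Basal keratins of the rule were split, with Krt5 at 1929 and 2705 CPM but Krt14 at 7527 and 5166 CPM. The raised genes compared were higher in members without a Trp63 UMI. Nppb was at 223 CPM in members without and 14.9 CPM in those with Trp63, Tslp at 484 and 137 CPM, Klk7 at 1366 and 566 CPM, Krt16 at 2566 and 1142 CPM, and Krt8 at 241 and 104 CPM. In the control library 3204 members without a Trp63 UMI and 2039 with 2 or more were compared in the same way. Col17a1 was at 1138 and 1374 CPM, Krt15 at 3773 and 3708 CPM, Krt16 at 690.4 and 708 CPM and Tslp at 25.6 and 25.5 CPM, while Sbsn was at 611 and 393 CPM and Krt6a at 287 and 181 CPM. Igfbp3 (1115 and 1526 CPM), Dst (477 and 571 CPM) and Klk7 (55.5 and 37.1 CPM) differed in the same direction as in the ablated library, and Krt15 and Krt16 did not. Slpi was at 7.05 and 1.32 CPM in these control sets and at 165 and 54.6 CPM in the ablated ones. Cells of 1 library are not replicates, and a cell without a UMI may still express Trp63.

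**Figure D5:**
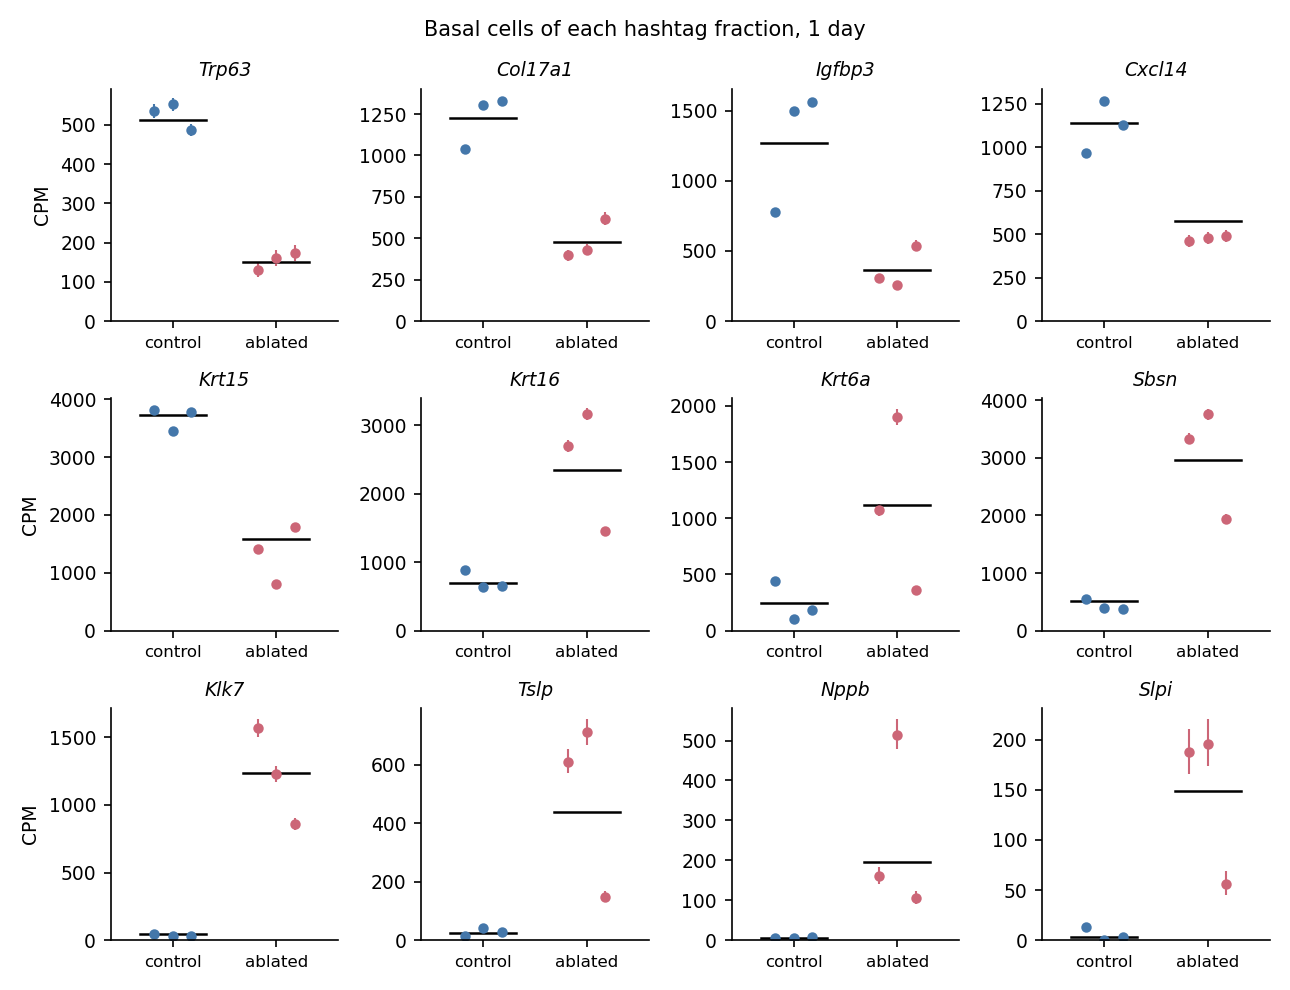
Level in CPM (vertical axes from 0) of 12 genes in the basal cells of each of 3 hashtag fractions per library, with 95% counting intervals, and the whole library as a black bar. The ablated fractions of Trp63, at 130.4 to 172 CPM, lie apart from 487 to 552 CPM in control, and Nppb ranges from 105 to 515 CPM among the ablated fractions.

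The fractions of 1 library differed among themselves. Slpi stood at 12.8, 0.484 and 2.96 CPM in the control fractions and 187, 196 and 55.8 CPM in the ablated ones. Krt6a stood at 1074, 1898 and 359 CPM in the ablated fractions, and the lowest Krt6a fraction lay under the highest control fraction (438, 99.6 and 182 CPM). The third fraction had the lowest Tslp, Nppb, Slpi, Klk7, Krt16 and Krt6a of the 3 and the highest Trp63 and Col17a1. Of the ablated members 49.1% had no clear hashtag and 16.2% had 2 or more, against 29.0% and 11.5% of control members. With single-hashtag members alone, 351 genes were higher and 99 lower.

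Markers of other cell types were read from the same sums. T cell markers were at 63.2 CPM in control and 30.3 CPM in ablated members, with all 7 detected, and myeloid markers at 730 and 852 CPM, with all 8 detected. Thy1 held 1809 of the 2342 control and 153 of the 352 ablated UMIs of the T cell markers, and the fall of their sum came from it. Melanocyte (8.72 and 10.1 CPM), fibroblast (9.99 and 4.47 CPM) and endothelial markers (1.38 and 0.860 CPM, Kdr at 0) were at most 10.1 CPM. Merkel cell markers other than Krt8 and Krt18 were at 0.054 and 0.258 CPM, with Atoh1, Isl1 and Krt20 at 0 in both libraries, and Sox2 at 0 in the ablated one. Hair follicle markers were at 278 and 529 CPM (Shh at 0 in ablated members), upper follicle markers, which include Krt17, at 3117 and 5496 CPM, and sebaceous markers at 52.0 and 103 CPM, with Plin5 at 0 in both. Several follicle genes capped by the rule were also higher in ablated members, such as Fst at 60.2 and 99.97 CPM and Postn at 29.9 and 49.8 CPM. The part of follicle cells in the results above was not tested.

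The same comparison was made in 3 other sets of cells, the first 2 from the same libraries. Suprabasal cells (5954 and 7496, with Krt1 and Krt10 above the basal pair) had 340 of 6411 genes higher (5.3%) and 142 lower (2.21%). Bulge cells of the hair follicle (3278 and 1652, with 3 or more UMIs of Cd34, Krt24, Postn and Lgr5) had 98 of 7360 higher (1.33%) and 16 lower (0.217%). Cells chosen by the same rule at 1 week (2858 and 501) had 814 of 7728 higher (10.5%) and 572 lower (7.4%). There the step on Krt79 removed 70.4% of the remaining ablated and 13.7% of the remaining control barcodes. Upper follicle markers had a median log2 ratio of 3.65 in this set and hair follicle markers 1.54, against 1.11 and 0.51 at 1 day. The part of follicle cells in the 1-week set was not tested. Depth and gene sets differ between the sets of cells, and no difference between cell sets was tested. Trp63 had log2 ratios of -1.76 in basal, -2.27 in suprabasal and -0.80 in bulge cells at 1 day and -2.36 in the 1-week set. For Col17a1 they were -1.36, -1.77, -0.63 and -2.42, for Krt16 1.74, 1.69, 1.17 and 2.81, and for Cxcl14 -0.98, -0.91, 0.10 and -1.63. The medians of the terminal differentiation list were 3.02, 1.18, 1.72 and 6.40 in the same order, those of the hemidesmosome list -0.50, 0.17, -0.15 and -1.35, and those of cholesterol synthesis 0.94, 0.36, 0.21 and 1.17.

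Cells chosen by the same rule at 1 week came from other libraries and another kit, so their overlap with the 1-day genes shares no sample. Of the 6702 genes measured at both times, 312 were at least 2-fold higher at 1 day and 579 at 1 week, and 257 were higher at both, 82.4% of the 1-day and 44.4% of the 1-week genes. For lower genes the numbers were 80, 504 and 65, 81.3% and 12.9%. Igfbp3 was at 2047 and 82.2 CPM at 1 week and Krt6a at 55.6 and 6226 CPM. The 1-week ablated members numbered only 501, of a median depth of 3281 UMIs, and free RNA was not examined there. Xist stood at 373 CPM in control and 164 CPM in ablated members at 1 week, against 1 UMI in each library at 1 day. The part of sex in the 1-week ratios was not tested.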

How the data were processed

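The deposited matrices hold UMI counts per gene and barcode, made with Cell Ranger 5.0.1 per the file headers, with mm10 named in the submitters' processing notes, and were not normalized. Each matrix has 32285 genes and 4 hashtag features, and 1 library stands for each group. No cells were clustered. Members were chosen by the stated limits, and the members and gene lists were chosen with earlier results of these data known. UMIs were summed over members and divided by their gene UMIs (CPM). Intervals are 95% exact Poisson for levels, exact conditional binomial for log2 ratios of ablated over control and exact binomial for shares, and cover counting error only. Genes with a mean of at least 10 CPM in both libraries together were compared, leaving out rule and mitochondrial genes, and called at 2-fold. Named genes were Trp63, the 12 highest and 12 lowest by the interval bound nearest 0, and the 3 highest and 3 lowest of each list, with other list members named where a count is described. A few genes that this rule names are not reported here. Shares of cells used cells thinned to 2000 UMIs with a fixed seed. Hashtags were called at 2 times the 25th percentile of a tag, with any second tag below 1.5 times. Immune cells had 2 or more Ptprc UMIs, fewer than 20 Krt5 and Krt14 UMIs per 10000 and 2000 or more UMIs. Doublets were kept in the main values. As an alternative, barcodes with the highest Scrublet scores (scanpy 1.11.5) were removed as doublets, at a preset share of 0.8% per 1000 barcodes. That share, which Scrublet did not estimate, took out 26.8% and 25.8% of the 1-day barcodes and 18.3% and 15.1% of members. The ratio and its interval were tested on simulated Poisson counts. These hold no variation between cells, animals or libraries, so that test covers the calculation only. Analyses used Python 3.11.15, numpy 2.4.6, pandas 2.3.3 and scipy 1.17.1.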

Additional observations from a re-analysis of the deposited data

Results flagged for a closer look

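Of the genes at least 2-fold apart at both times in cells chosen by the rule, 4 went in opposite directions at 1 day and 1 week, and none of these differences was tested. The log2 ratio of Hbb-bs, a haemoglobin gene of red cells, was 1.91 at 1 day (471 control and 557 ablated UMIs) and -1.65 at 1 week (487 and 33 UMIs). For Nr4a2, an immediate early nuclear receptor gene, it was 1.04 and -1.06, and for Pdgfb, a platelet-derived growth factor gene, 1.13 and -1.07. Tinagl1, a matricellular protein gene, had -1.11 at 1 day (872 and 127 UMIs) and 2.54 at 1 week (186 and 231 UMIs). The libraries of the 2 times were made with different kits and differed in Xist.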

How the results depend on the processing

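No paired analysis was possible because each group is 1 library, and no replicate could be left out. Trp63 stayed lower in every setting tried, and causes of the shifts were not tested. Its log2 ratio was -1.84 with totals without mitochondrial and ribosomal protein genes, -1.65 as the mean of cells, -1.63 thinned, -2.04 at a minimum of 4000 UMIs, -1.68 at a keratin ratio of 5, -2.20 without the Krt8 limit and -1.97 with follicle limits per 10000 UMIs. In settings chosen after seeing the data it was -1.34 at Krt8 of 0, -1.61 at 2000 to 5000 UMIs and -1.48 without Krt1 and Krt10 UMIs. Lower genes numbered 128 at 4000 UMIs and 127 without the Krt8 limit. Higher and lower genes numbered 110 and 23 with a filter of 50 CPM, 2204 and 611 with none, and 684 and 312 at 1.5-fold. At 50 CPM fewer genes entered the lists, and the medians of the Notch and protease lists were -0.23 and -0.57. The G2/M share differed by -1.17 points at 4000 UMIs, -2.66 at 5% mitochondrial UMIs, -0.475 without the Krt8 limit, -3.39 with follicle limits per 10000 and -10.3 unthinned, and, added later, -8.58 at Krt8 of 0 and -0.0708 without Tubb4b and Cks2. The share of members differed by -18.7 points at 4000 UMIs, -19.8 at 5% mitochondrial UMIs, -9.74 without the Krt8 limit, -15.5 with follicle limits per 10000 and -20.7 without Scrublet doublets. Of the genes past 2-fold, 72.1% to 83.2% were higher in all settings with this count. Depth limits low genes most: Sprr2e rests on 5 control UMIs.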
